A study of Mus musculus with 12 samples.

Results

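The genes described here encode 9 receptors for chemokines and chemerin, Ccr1, Ccr2, Ccr3, Ccr7, Ccrl2, Cx3cr1, Cxcr4, Ackr3 and Cmklr1, and were taken by symbol from the 56748 genes of the count matrix. All 9 were listed, and 8 of them were among the 15033 genes with enough counts to be tested; Ccr7 was not. The cells were BMDM, macrophages grown from the bone marrow of female C57BL/6J mice with M-CSF at 20 ng/mL, made M2-like by 48 h of IL4 (10 ng/mL). They were then kept for 72 h under 1 of 4 conditions with 3 libraries each. The untreated control received no IFNβ and no supernatant (sn). The eGFP sn came from YUMM5.2 mouse melanoma cells that expressed eGFP after 72 h in Dox at 1 μg/mL. The Ifnb1eGFP sn came from YUMM5.2 cells that expressed Ifnb1 together with eGFP under the same Dox treatment and was diluted to 1500 pg/mL IFNβ, with the eGFP sn diluted in the same ratio. The rIFNβ condition received recombinant IFNβ at 1500 pg/mL without sn.

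Chemokines are small secreted proteins that attract leukocytes by binding receptors which span the membrane and signal through inhibitory G proteins, whereas chemerin is a larger secreted protein sensed by its own receptors. Conventional receptors such as Ccr2 and Cxcr4 drive migration. Atypical receptors such as Ackr3, and the related Ccrl2, bind or present ligand without the usual G protein signal. Macrophages carry several of these receptors, and monocytes lose or gain some of them as they mature.

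The design has 2 agents, IFNβ and sn. Here sn means all that the diluted donor medium carried, including any remaining Dox. No condition received Dox or cell-free donor medium alone, so these parts of the sn effect cannot be told apart. The IFNβ effect was measured in the presence of sn (Ifnb1eGFP sn against eGFP sn) and in its absence (rIFNβ against untreated control). These 2 comparisons share no library. The first also compares 2 donor lines, so any other difference between their sn cannot be told apart from IFNβ. The sn effect was likewise measured without IFNβ (eGFP sn against untreated control) and with it (Ifnb1eGFP sn against rIFNβ), again with no library in common. The latter also compares IFNβ from donor cells with the recombinant protein. The sn effect averaged over both IFNβ states includes this comparison and shares its limit. Log2 fold changes and adjusted p are from edgeR's quasi-likelihood test over all 12 libraries, a gene was called when its adjusted p was no higher than 0.05, and levels are counts per 1e+06 library counts (CPM). In bulk RNA fewer cells of a type and less RNA per cell cannot be told apart.

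IFNβ changed most of these receptors in both directions. With sn, 4 of the 8 genes tested were higher (Cxcr4, Ackr3, Ccrl2 and Ccr1) against 30.1% of all genes tested, and 3 were lower (Ccr2, Cx3cr1 and Ccr3) against 25.0%. Without sn, 3 were higher (Cxcr4, Ackr3 and Ccrl2) against 30.7% of all genes, and 3 were lower (Ccr2, Cx3cr1 and Ccr3) against 24.6%. At the stricter thresholds of the study (log2 fold change of 2 or more in size, adjusted p no higher than 0.01), Ackr3 was higher and Ccr2 and Cx3cr1 lower with sn, where 2.77% of all genes were higher and 2.62% lower; Ackr3 did not pass them without eGFP sn replicate 1 or 2 or Ifnb1eGFP sn replicate 1 or 3. Without sn Ccr2 alone passed them, as a lower gene, where 2.99% of all genes were higher and 2.78% lower. The median log2 fold change of the receptors tested was 0.12 with sn and 0.02 without, beside 0.03 and 0.04 over all genes tested.

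The sn changed fewer genes. Without IFNβ it raised 1 receptor, Cxcr4, where 0.246% of all genes were higher and 0.0532% lower. With IFNβ it raised 2, Cxcr4 and Ccr1, where 0.140% were higher and 0.0200% lower. Averaged over both IFNβ states, the same 2 receptors were higher and none was lower, where 0.692% of all genes were higher and 0.213% lower. These shares rest on few genes and on single libraries. Without Ifnb1eGFP sn replicate 2 the genes called for sn with IFNβ numbered 1051 in place of 24, and for the averaged effect 531 in place of 136, while the same 2 receptors were called. The median log2 fold change of the receptors was 0.22 for this averaged sn effect and -0.0009 over all genes. The plot of log2 fold changes sets both agents side by side for each receptor.

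**Figure D1:**
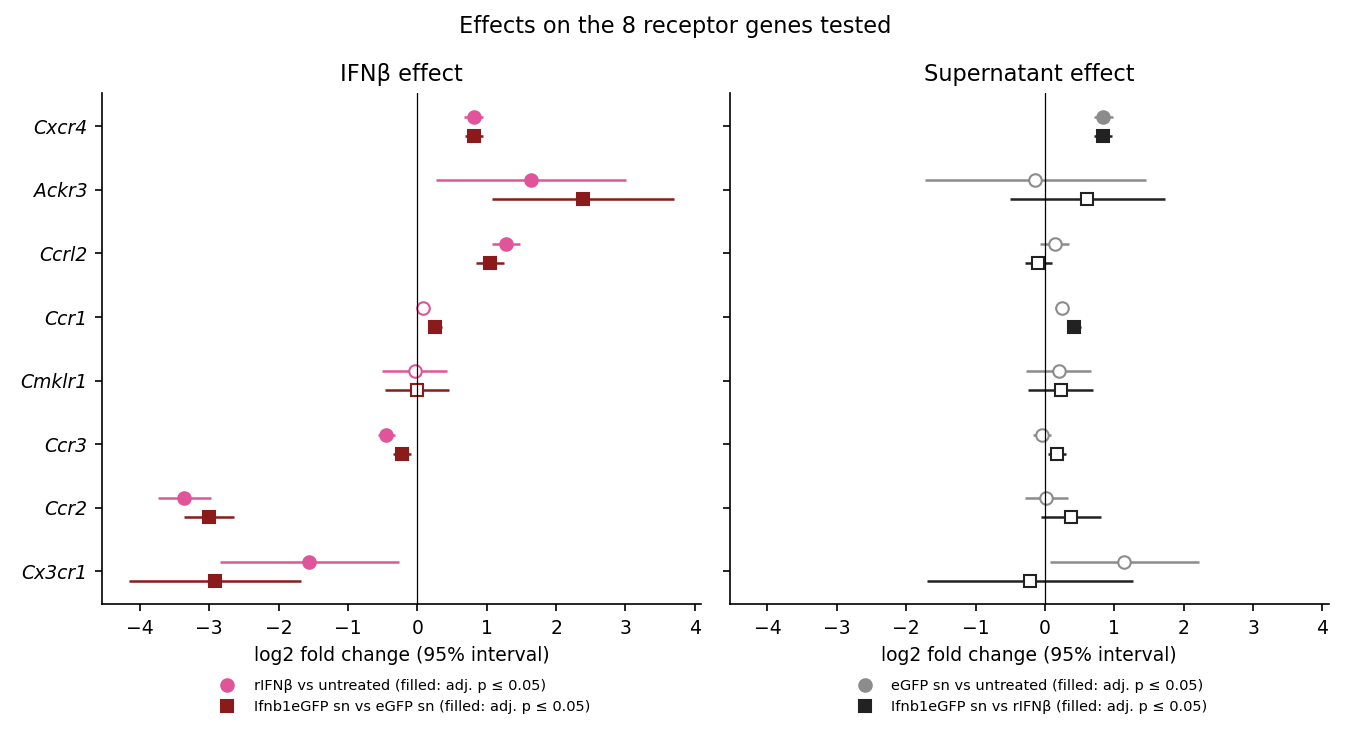
Log2 fold change with its 95% interval (x axis) for each of the 8 receptor genes tested (y axis), for IFNβ on the left and for sn on the right; filled symbols have an adjusted p of at most 0.05. Cxcr4 is filled in all 4 comparisons, Ccr2 lies near -3 for IFNβ only, and the intervals of Ackr3 and Cx3cr1 are the widest.

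Cxcr4, the receptor for CXCL12 that retains leukocytes in the bone marrow (ENSMUSG00000045382, GRCm39 chr1:128515936-128520044, minus strand), was raised by IFNβ and by sn. It stood at 18.9, 17.1 and 19.7 CPM in the 3 untreated libraries, at 33.3, 31.4 and 35.3 with eGFP sn, at 31.6, 33.5 and 32.9 with rIFNβ, and at 57.4, 57.8 and 60.3 with Ifnb1eGFP sn. Either agent alone thus gave an intermediate level and the libraries of the 2 single-agent conditions overlapped, while all untreated libraries lay below them and all Ifnb1eGFP sn libraries above. The IFNβ effect was a log2 fold change of 0.81 (SE 0.0592, adjusted p = 4.53e-07) with sn and 0.81 (SE 0.0613, adjusted p = 5.21e-07) without. The sn effect was 0.84 (SE 0.0613, adjusted p = 0.000193) without IFNβ and 0.84 (SE 0.0593, adjusted p = 0.000143) with it. On the linear scale the mean was 1.80 times the untreated mean with eGFP sn, 1.76 times with rIFNβ and 3.15 times with Ifnb1eGFP sn.

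The difference between the IFNβ effects in the presence and absence of sn (the interaction) was estimated at -0.003 for Cxcr4 on the log2 scale, with a 95% interval of -0.19 to 0.18. It sets IFNβ from donor cells beside recombinant IFNβ, so a difference between these sources cannot be told apart from an interaction. Set directly against each other, rIFNβ and eGFP sn differed in Cxcr4 by -0.03 (95% interval -0.16 to 0.10, adjusted p = 0.702), and the interval held 0. In that same comparison 2 of the other receptors were higher with rIFNβ (Ccrl2 and Ackr3) and 4 were lower (Ccr2, Cx3cr1, Ccr3 and Ccr1), where 30.0% of all genes were higher and 24.6% lower.

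**Figure D2:**
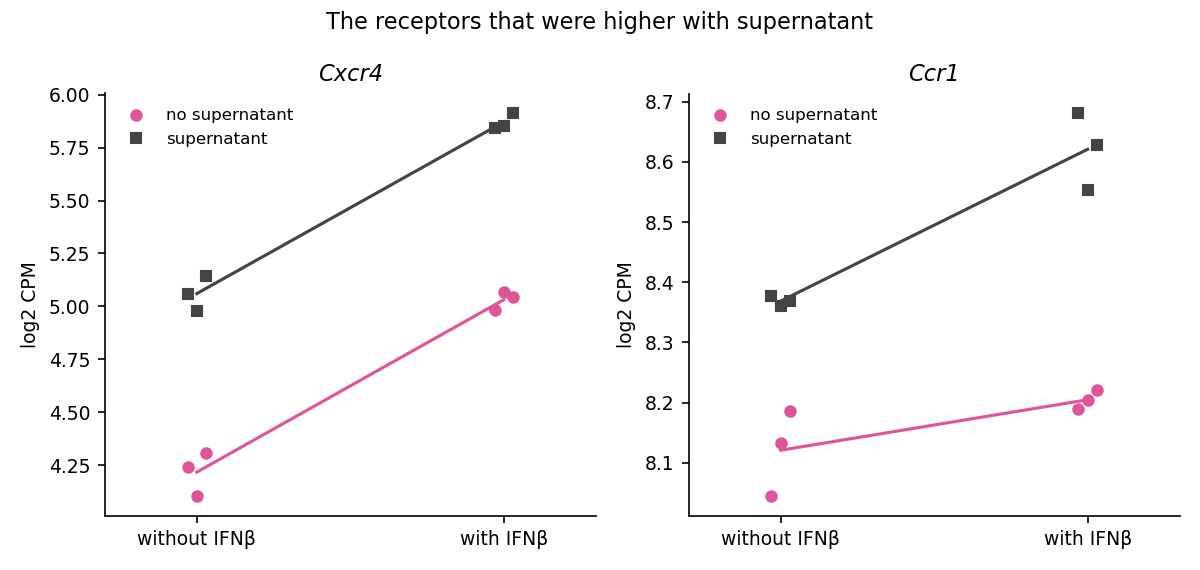
Level of Cxcr4 and Ccr1 in each library on a log2 CPM scale (y axes, which do not start at 0) without and with IFNβ (x axes), with squares for conditions with sn and circles for those without; lines join the condition means. The Cxcr4 lines run parallel, and the Ccr1 line is steeper with sn, a difference that did not pass the adjustment over all genes.

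Ackr3, the atypical receptor that removes CXCL12 by internalizing it (ENSMUSG00000044337, chr1:90131689-90144473, plus strand), was the second CXCL12 receptor to rise with IFNβ, at a far lower level. It stood at 0.159, 0.0878 and 0.213 CPM in the untreated libraries, at 0.126, 0.0487 and 0.251 with eGFP sn, at 0.623, 0.292 and 0.581 with rIFNβ, and at 1.14, 0.298 and 0.825 with Ifnb1eGFP sn. Every library with IFNβ lay above every library without it, and replicate 2 was the lowest in each of the 4 conditions. These levels rest on 2 to 10 counts per library without IFNβ and on 12 to 45 with it. The IFNβ effect was 2.39 (SE 0.594, adjusted p = 0.00518; 1.95 to 3.07 with each library left out, adjusted p of up to 0.0245, the highest value without eGFP sn replicate 3) with sn and 1.64 (SE 0.621, adjusted p = 0.0426) without. The latter was not called when any 1 of 5 libraries was left out (untreated control replicates 1, 2 and 3 and rIFNβ replicates 1 and 3), with log2 fold changes of 1.37 to 1.98 and adjusted p of 0.0567 to 0.130. The sn effect on Ackr3 was not called, at -0.14 (95% interval -1.73 to 1.45) without IFNβ and 0.61 (-0.51 to 1.73) with it.

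Fibroblast and stroma markers moved with the replicate number as well. Of 5 markers (Col1a1, Col1a2, Col3a1, Pdgfrb and Lepr) 4 were tested, none was at 0 in all libraries of a condition, and Lepr never exceeded 2 counts. Their summed level was 30.5 to 70.1 CPM in the untreated libraries, 25.5 to 60.0 with eGFP sn, 27.4 to 43.1 with rIFNβ and 31.1 to 34.2 with Ifnb1eGFP sn, with replicate 2 lowest in the first 3. IFNβ raised none of the 4 and lowered 1 with sn and 2 without. Their part in the Ackr3 result was not tested.

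The bases before the start of these genes are shown for the pair that share CXCL12 and both rose with IFNβ, for Ccr1, which rose with sn, and for Ccr2, which fell most. RefSeq gave a window from 250 bases before to 50 after the start for 8 of the 9 genes (10 windows, build GRCm38.p6; none for Ccr7), and the 100 bases before the start are printed 5′ to 3′ with matches to 3 motifs (TATAAA, GAAANNGAA and TTCNNNGAA, on either strand) in capitals. The lines are from chr1:128592300-128592399 (minus strand) for Cxcr4, chr1:90203880-90203979 (plus) for Ackr3, chr9:123968693-123968792 (minus) for Ccr1 and chr9:124102083-124102182 (plus) for Ccr2.
Cxcr4: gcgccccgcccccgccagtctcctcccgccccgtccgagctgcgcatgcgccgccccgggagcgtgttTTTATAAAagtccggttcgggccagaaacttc
Ackr3: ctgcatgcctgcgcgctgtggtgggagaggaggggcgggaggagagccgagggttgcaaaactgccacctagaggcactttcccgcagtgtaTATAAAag
Ccr1: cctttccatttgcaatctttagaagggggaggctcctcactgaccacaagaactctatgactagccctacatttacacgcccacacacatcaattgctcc
Ccr2: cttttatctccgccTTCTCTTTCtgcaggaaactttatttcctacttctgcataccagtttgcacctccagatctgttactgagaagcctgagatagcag
The letters TATAAA began 30 bases before the start in Cxcr4, overlapping a match on the other strand, and 8 bases before it in Ackr3, and were not found in the windows of the other 6 genes. They occur in 13.6% of the 32851 RefSeq windows of this length. The core of the interferon-stimulated response element, GAAANNGAA on either strand, occurs in 8.56% of all windows and was present in that of Ccr2, on the strand opposite to the one printed, from 86 bases before the start (in capitals above). Followed by a further A it occurs in 3.44% of all windows and in 0 of these 10. The STAT site TTCNNNGAA occurs in 8.30% of all windows and in 0 of these 10.

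Ccr1, a receptor for CCL3 and CCL5 (ENSMUSG00000025804, chr9:123762161-123768734, minus strand), was the most abundant of the set and moved little. It stood at 264, 281 and 291 CPM in the untreated libraries, at 332, 328 and 330 with eGFP sn, at 292, 295 and 298 with rIFNβ, and at 410, 375 and 395 with Ifnb1eGFP sn. The conditions did not overlap, and both conditions with sn lay above both without. The averaged sn effect was a log2 fold change of 0.33 (SE 0.0326, adjusted p = 0.00095). With IFNβ present it was 0.42 (SE 0.0462, adjusted p = 0.00476), a call lost without rIFNβ replicate 1 (0.41, adjusted p = 0.0565) and in a fit of those 2 conditions alone (0.43, adjusted p = 0.126). Without IFNβ it was 0.25 (SE 0.0462) and was not called (adjusted p = 0.0664), although it was with DESeq2 (0.25, adjusted p = 0.0019) and in a model blocked on replicate (0.25, adjusted p = 0.0482). Ccr1 was higher with Ifnb1eGFP sn than with eGFP sn, by 0.25 (SE 0.0461, adjusted p = 0.000662). IFNβ and other differences between these 2 sn cannot be told apart here. For rIFNβ in the absence of sn the change was 0.08 (95% interval -0.02 to 0.18, adjusted p = 0.153). The difference between these effects was 0.17 (95% interval 0.03 to 0.31, unadjusted p = 0.0239 in edgeR) and did not pass the adjustment over all genes (adjusted p = 0.926).

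Ccr2, the receptor for CCL2 that brings monocytes out of the bone marrow and into tissue (ENSMUSG00000049103, chr9:123901982-123913594, plus strand), had the lowest adjusted p of the set for IFNβ. It stood at 8.77, 8.66 and 9.62 CPM in the untreated libraries, at 7.85, 9.21 and 10.4 with eGFP sn, at 0.860, 0.742 and 1.04 with rIFNβ, and at 1.16, 0.869 and 1.37 with Ifnb1eGFP sn. The lowest library without IFNβ was thus several times above the highest with it, and within each IFNβ state the conditions overlapped. The log2 fold change was -3.0 (SE 0.166, adjusted p = 4.82e-08) with sn and -3.36 (SE 0.174, adjusted p = 2.43e-08) without. The sn effect was 0.02 (95% interval -0.29 to 0.33) without IFNβ and 0.38 (-0.06 to 0.81) with it. Estimated counts of Ccr2 were not whole in 12 of 12 libraries, which shows that RSEM had divided some of its reads among genes, whereas those of the other receptors were whole. With IFNβ, Ccr2 had 28.8 to 62.6 counts per library.

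Cx3cr1, the receptor for CX3CL1 carried by patrolling monocytes and resident macrophages (ENSMUSG00000052336, chr9:119877749-119898945, minus strand), was also lower with IFNβ, from a low level. It stood at 0.286, 0.322 and 0.993 CPM in the untreated libraries, at 1.41, 0.755 and 1.48 with eGFP sn, at 0.0593, 0.202 and 0.278 with rIFNβ, and at 0.101, 0.174 and 0.195 with Ifnb1eGFP sn. No library with IFNβ reached the lowest without it, and the untreated and eGFP sn libraries overlapped. With IFNβ there were 2 to 11 counts per library. The log2 fold change was -2.92 (SE 0.562, adjusted p = 0.000988) with sn and -1.56 (SE 0.587, adjusted p = 0.0418) without. The latter was -0.72 (adjusted p = 0.317) without untreated control replicate 3, -1.19 (adjusted p = 0.125) without rIFNβ replicate 1, -1.64 (adjusted p = 0.0847) without rIFNβ replicate 2, and -1.60 (adjusted p = 0.0584) in a fit of those 2 conditions alone. The sn effect without IFNβ was 1.14 with a 95% interval of 0.07 to 2.21 and did not pass the adjustment (adjusted p = 0.589; 1.99 without untreated control replicate 3, adjusted p = 0.249), and with IFNβ it was -0.22 (95% interval -1.71 to 1.27). The interaction was -1.36 (95% interval -3.21 to 0.49, adjusted p = 0.926), and -2.20 without untreated control replicate 3 (adjusted p = 0.904).

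Markers of monocytes, which carry Ccr2 and Cx3cr1, did not move one way. Of 5 markers 4 were tested, and IFNβ raised 2 (Chil3 and Plac8) and lowered 2 (F13a1 among them) both with and without sn. F13a1 changed by -3.54 (SE 0.514, adjusted p = 0.000119) with sn and -2.32 (SE 0.507, adjusted p = 0.0022) without, both lowered markers passed the study's thresholds without sn, and the median over the 4 was -0.55 with sn and -0.83 without. Their summed level, mostly that of Chil3, which M2-like macrophages express too, was 65.3 to 83.4 CPM in the libraries without IFNβ and 107 to 131 with it. None was at 0 throughout a condition, and the part of such cells in the Ccr2 and Cx3cr1 results was not tested.

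Ccr3, known as the eotaxin receptor of eosinophils (ENSMUSG00000035448, chr9:123822009-123831726, plus strand), was the second most abundant of the set. It stood at 154, 178 and 155 CPM in the untreated libraries, at 154, 161 and 157 with eGFP sn, at 114, 125 and 118 with rIFNβ, and at 137, 134 and 133 with Ifnb1eGFP sn. The libraries with IFNβ all lay below those without, by a narrow margin. The log2 fold change was -0.22 (SE 0.0575, adjusted p = 0.00617) with sn and -0.45 (SE 0.0577, adjusted p = 4.6e-05) without. The difference between these was 0.22 (95% interval 0.04 to 0.40, unadjusted p = 0.0196 in edgeR, adjusted p = 0.926), and the sn effect was not called in either IFNβ state.

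Of 5 eosinophil markers 4 were nearly absent from all libraries, and Siglecf was not. The others, Epx, Prg2, Prg3 and Il5ra had at most 3 counts in any library, and Prg3 was at 0 in all 12. Siglecf, the only 1 tested, made up nearly all of their summed level of 3.69 to 4.75 CPM without IFNβ and 0.248 to 0.771 with it, and its log2 fold change was -3.24 (SE 0.263, adjusted p = 1.07e-06) with sn, larger in size than that of Ccr3. The part of such cells in the Ccr3 result was not tested.

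Ccrl2, which binds chemerin and presents it to neighbouring cells (ENSMUSG00000043953, chr9:110883554-110886591, minus strand), rose with IFNβ and was not called for sn. It stood at 10.5, 10.0 and 10.5 CPM in the untreated libraries, at 12.1, 12.3 and 9.63 with eGFP sn, at 26.0, 25.8 and 23.5 with rIFNβ, and at 24.6, 24.0 and 21.9 with Ifnb1eGFP sn. The IFNβ conditions overlapped each other and lay well above the other 2, which also overlapped. The log2 fold change was 1.05 (SE 0.09, adjusted p = 1.71e-06) with sn and 1.28 (SE 0.0912, adjusted p = 3.22e-07) without, and the sn effect was 0.14 (95% interval -0.07 to 0.34) without IFNβ and -0.10 (-0.29 to 0.09) with it.

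Cmklr1, the signalling receptor for chemerin (ENSMUSG00000042190, chr5:113750358-113788509, minus strand), was not called in any comparison. It stood at 7.75, 5.35 and 5.94 CPM in the untreated libraries, at 9.24, 6.82 and 5.69 with eGFP sn, at 7.89, 5.22 and 5.46 with rIFNβ, and at 7.76, 7.74 and 6.12 with Ifnb1eGFP sn. All 4 conditions overlapped, and replicate 1 was the highest in each. The 95% interval of the IFNβ effect ran from -0.47 to 0.45 on the log2 scale with sn and from -0.51 to 0.43 without, and that of the averaged sn effect from -0.12 to 0.54, so larger changes than these lie outside the intervals. The 2 chemerin receptors therefore gave different calls for IFNβ, a contrast between genes that was not itself tested.

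Ccr7, the receptor that guides mature dendritic cells to lymph nodes (ENSMUSG00000037944, chr11:99035022-99045911, minus strand), had 0 to 3 counts in every library. That is at or under a floor of 3 counts, which corresponds to 0.0651 to 0.0953 CPM over the 12 libraries, so no fold change is given. A change within that range was not detectable at this depth, and no library rose above the floor. Of 7 dendritic cell markers 4 were tested and IFNβ raised none of them. It lowered 3 with sn and 2 without, where 25.0% and 24.6% of all genes were lower.

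**Figure D3:**
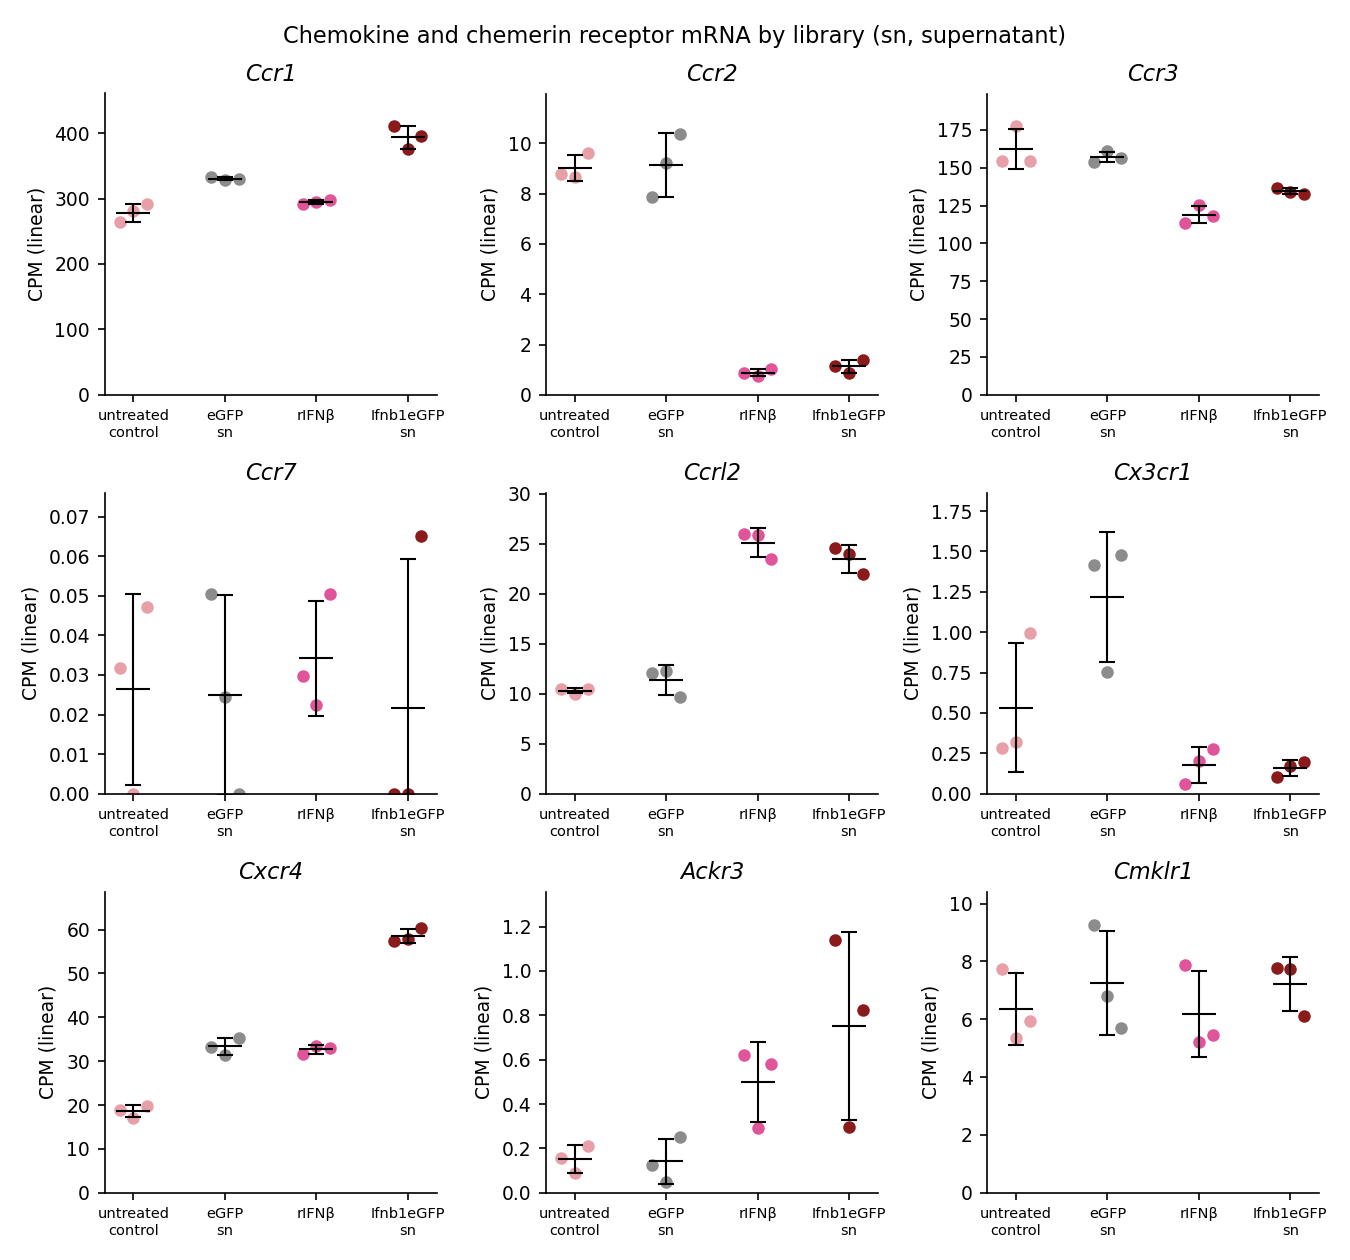
CPM on a linear scale from 0 (y axes, scaled for each gene) of the 9 receptor genes in every library (points), by condition (x axes), with the mean (long line) and SD (bars, n = 3). Cxcr4 shows 3 separate levels, Ccr2, Cx3cr1, Ccrl2 and Ackr3 split by IFNβ, Cmklr1 overlaps throughout, and Ccr7 stays at 0 to 3 counts.

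Between genes, levels were compared as CPM per kb of merged exons. In the untreated libraries Ccr1 led at 98.1 ± 4.84 (SD, n = 3), followed by Ccr3 at 49.6 ± 4.09, Cxcr4 at 10.2 ± 0.729, Ccrl2 at 3.94 ± 0.105, Cmklr1 at 1.52 ± 0.301, Ccr2 at 1.33 ± 0.0780, Cx3cr1 at 0.115 ± 0.0855, Ackr3 at 0.0189 ± 0.00774 and Ccr7 at 0.0133 ± 0.0121 CPM per kb. Cmklr1 and Ccr2 overlapped, as did Ackr3 and Ccr7, and the other neighbours did not. The first 4 places were the same in all 4 conditions. With IFNβ, Ccr2 fell clear of Cmklr1, to 0.130 ± 0.0218 CPM per kb with rIFNβ and 0.167 ± 0.0371 with Ifnb1eGFP sn, and Ackr3 stood above Cx3cr1 with overlapping libraries. Cxcr4 reached 32.1 ± 0.853 CPM per kb with Ifnb1eGFP sn, nearer to Ccr3 at 41.1 ± 0.581 than in any other condition.

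Among the 8 receptor genes tested 0 had an adjusted p of at most 0.05 for the interaction of IFNβ and sn in edgeR, as had 0 of all 15033 (0% of genes higher and 0% lower). At an unadjusted p under 0.05 there were 2 receptors, Ccr1 and Ccr3, and 661 genes in all. DESeq2 called 12 genes, of which 0 were among these receptors.

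Of 18 other chemokine receptors listed 7 were tested, and IFNβ moved 4 of them with and without sn. With sn 2 were higher and 2 lower, beside 30.1% and 25.0% of all genes, so the share called was near that of all genes. Ccr1l1, a near relative of Ccr1, rose by 0.81 (SE 0.139, adjusted p = 0.000409) from 2.14 ± 0.167 to 3.76 ± 0.292 CPM (SD, n = 3). The scavenger Ackr4 was lower (adjusted p = 6.02e-06), with 68.1 to 84.5 counts per library with eGFP sn and 0 to 4.08 with Ifnb1eGFP sn. Cxcr2, the receptor of neutrophils for CXCL1 and CXCL2, was lower too (adjusted p = 5.71e-06), with 21 to 30.9 and 1 to 3 counts. These low counts lie near the floor of 3, so no fold is given. Ccr9, Ccr10 and Cxcr3 were not called, at 0.13, -0.61 and -0.00. None of the 7 was called for sn.

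Of 18 ligands listed 15 were tested. With IFNβ, 9 were higher and 3 lower with sn, beside 30.1% and 25.0% of all genes, with a median log2 fold change of 1.48 beside 0.03. Without sn 8 were higher and 2 lower, beside 30.7% and 24.6%, with a median of 1.18 beside 0.04. Ccl8 rose by 4.20 (SE 0.15, adjusted p = 1.76e-09), Ccl7 by 2.67 (SE 0.174, adjusted p = 1.75e-07), Ccl12 by 2.02 (SE 0.266, adjusted p = 5.67e-05) and Ccl4 by 1.48 (SE 0.176, adjusted p = 2.39e-05) in the presence of sn. The first 3 of these attract monocytes. The ligands of single receptors described above were added after their values were seen. With sn, Cxcl12 rose by 2.15 (SE 0.465, adjusted p = 0.00219) and chemerin, encoded by Rarres2, by 1.40 (SE 0.451, adjusted p = 0.0206), whereas Cx3cl1 fell by 0.97 (SE 0.228, adjusted p = 0.00363) and Ccl2 was not called (0.11, adjusted p = 0.63). Cxcl12 rested on 5 to 28 counts per library with eGFP sn and on 72 to 117 with Ifnb1eGFP sn. For Rarres2 these were 5.99 to 17.6 and 26.1 to 32.1 counts. Thus, in the presence of sn, Cxcl12 and both of its receptors were higher with IFNβ, and Cx3cl1 and its receptor were lower. In the same comparison Ccl2 was not called while its receptor was lower. None of the 15 ligands was called for sn, whether in either IFNβ state or averaged.

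Of 15 signalling genes downstream of the receptors, all tested, IFNβ raised 3 and lowered 4 with sn, beside 30.1% and 25.0% of all genes. Among them Dock2, a guanine nucleotide exchange factor for Rac in migrating leukocytes, changed by -0.66 (SE 0.0507, adjusted p = 6.92e-07), the kinase subunit gene Pik3cg by -0.31 (SE 0.0437, adjusted p = 0.000103) and the G protein subunit gene Gng2 by 0.36 (SE 0.0481, adjusted p = 6.62e-05). The sn also lowered Dock2 without IFNβ (-0.30, SE 0.0505, adjusted p = 0.0402), and averaged over IFNβ states it lowered Ptk2b, a kinase activated by calcium (-0.15, SE 0.028, adjusted p = 0.0351). Without sn IFNβ likewise raised 3 and lowered 4, beside 30.7% and 24.6% of all genes.

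Of 16 desensitisation and trafficking genes, all tested, IFNβ raised 5 and lowered 4 with sn (all genes 30.1% and 25.0%) and raised 6 and lowered 5 without (30.7% and 24.6%), shares near those of all genes. The regulators of G protein signalling Rgs16, Rgs2 and Rgs10, which shorten the receptor signal, were all lower with IFNβ in the presence of sn, at -2.47 (SE 0.0961, adjusted p = 3.14e-09), -0.75 (SE 0.0517, adjusted p = 2.81e-07) and -0.93 (SE 0.042, adjusted p = 9.57e-09), while Rgs14 was not called (0.25, adjusted p = 0.128). Cd74, which binds the cytokine MIF together with Cxcr4, was lower with sn averaged over IFNβ states (-0.40, SE 0.0737, adjusted p = 0.0329). Of 4 genes for receptor modification and ligand shedding, Tpst1, which sulphates tyrosines of chemokine receptors, rose with IFNβ by 2.11 (SE 0.118, adjusted p = 5.13e-08) in the presence of sn, and Adam17, a sheddase of Cx3cl1, changed by -0.19 (SE 0.0415, adjusted p = 0.00217). Tpst2, a relative of Tpst1, was not called (-0.48, adjusted p = 0.0691). Without sn the calls in this group of 4 were again 1 higher and 1 lower.

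**Figure D4:**
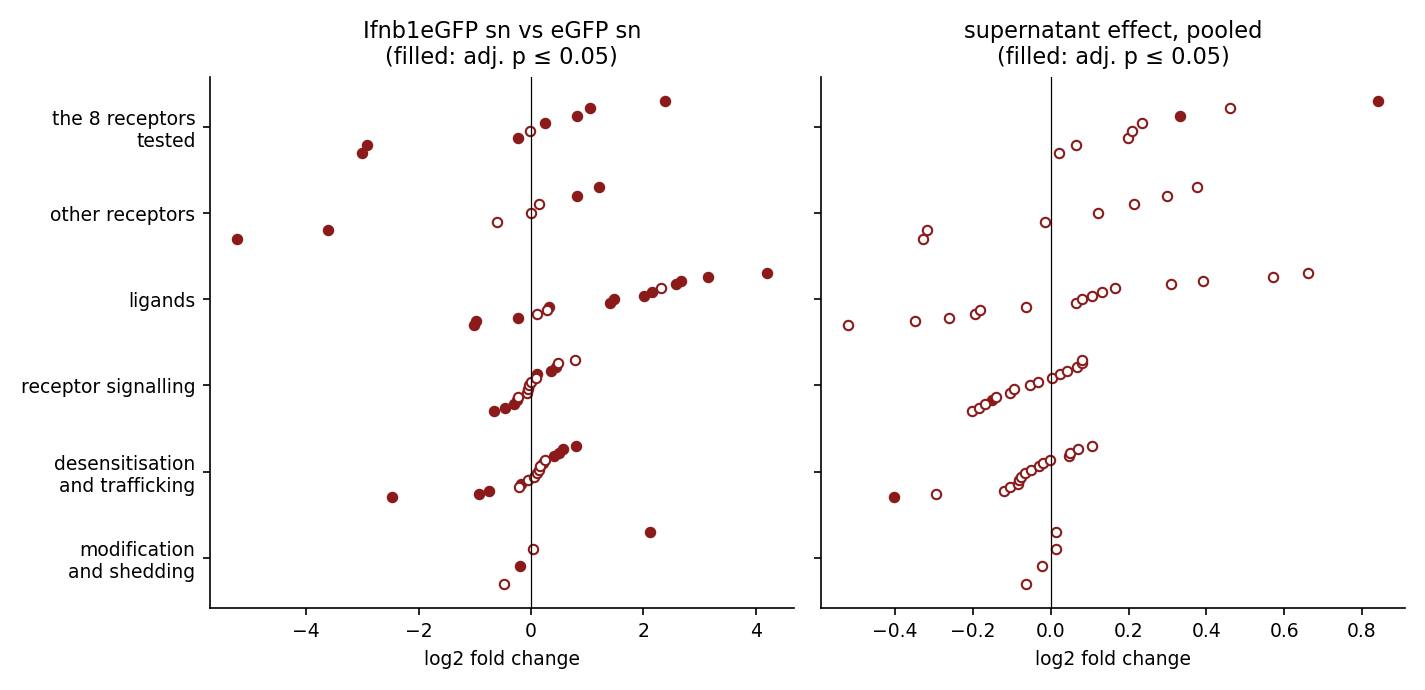
Log2 fold change (x axes) of each gene tested, by list (y axis), for IFNβ in the presence of sn on the left and for sn averaged over IFNβ states on the right; filled points have an adjusted p of at most 0.05. For sn, 2 receptors, Cxcr4 and Ccr1, are filled on the higher side, and Ptk2b and Cd74 on the lower.

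The genes whose pattern over the 12 libraries was most like that of a receptor were found by Pearson's r of log2 CPM, given as a description, since all points share libraries and conditions. For Cxcr4 these were Apoc2 (r = 0.983), Ctsl (0.981) and Ggta1 (0.979), and for Ccr1 Rnf150 (0.966), Antxr2 (0.961) and Ctsl (0.939), so Ctsl was near both. For Ccr2 they were Emp2 (0.997), F2rl2 (0.997) and Emb (0.997), and for Ccrl2 S1pr2 (0.996), Gch1 (0.995) and Tpst1 (0.995). For Ackr3 they were Kcnq5 (0.973), Ptgs2 (0.970) and Dcn (0.966). For Ccr3 they were Brk1 (0.977), Ak3 (0.973) and Clns1a (0.968), and for Cx3cr1 Rab44 (0.962), H2bc9 (0.955) and Ddx31 (0.948). No gene came as near to Cmklr1, for which the highest were Calhm5 (0.847), Smurf2 (0.834) and Fst (0.831).

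Library totals ran from 31526034 to 45348457 counts. Of 6 macrophage markers all were well above the floor in every library, with a summed level of 4027 to 4403 CPM without IFNβ and 6010 to 6288 with it, and IFNβ raised 5 of them both with and without sn. Of 4 endothelial markers 3 were tested and IFNβ raised all 3 with sn and 2 without, from a summed 1.32 to 1.82 CPM to 5.60 to 6.51. The markers of neutrophils, mast cells and basophils, T and NK cells, B cells and melanoma summed to less than 6 CPM per list in every library, and IFNβ raised 1 of the 5 genes tested among them with sn and lowered 2. Among the dendritic cell markers it lowered 3 with sn and 2 without. None of the marker genes tested was called for sn. Of the receptors, 5 lie on chromosome 9, Ccr1, Ccr3 and Ccr2 close together. Antisense genes overlap Cx3cr1, Cmklr1 and Ccr7, with at most 1 count in any library; whether counting used the strand is not given in the sources used here.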

How the data were processed

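Per the labels and the study's methods, total RNA of M2-like BMDM (3 libraries in each of 4 conditions; the design text gives 3 mice per condition and does not tie libraries to mice) was made into stranded libraries and quantified with RSEM 1.3.3, and the authors deposited expected counts per Ensembl gene, without normalization. What a shared replicate number stands for is not given in the sources used here. Of the values 12.0% were not whole, and all were rounded. In the methods the genome reads GRCm39 mm10, a mix of 2 build names; gene positions here are those of GRCm39 and promoter sequences those of RefSeq on GRCm38.p6.

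The tests used edgeR 4.0.16 under R 4.3.3. After filterByExpr had left 15033 genes and TMM factors had been computed, 1 quasi-likelihood model was fitted over the 12 libraries, and p-values were adjusted by the Benjamini-Hochberg method over all genes tested. The SE of a log2 fold change was taken from its size and the root of F. CPM used TMM-scaled totals, and log2 CPM a prior count of 2. No single value of 3 libraries against 3 can reach an exact permutation p under 0.1, so the tests are those of the model. The calculations were tested on simulated data. Alternatives were DESeq2 1.42.0, RLE factors, library totals, no filter, the replicate block, fits of the compared conditions alone, and each library left out.

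The receptors and all gene lists were chosen with earlier results of these data known. The text names all 9 receptors, the other receptors tested, and of each other list the 3 genes with the smallest adjusted p for IFNβ with sn and the 2 with the smallest p for the averaged sn effect; for each receptor it names the 3 genes with the highest r. Some genes this rule takes are not reported here. All 12 columns of counts were assigned by name.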

Additional observations from a re-analysis of the deposited data

How the results depend on the processing

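No receptor changed direction where it had been called. The number of receptors called for sn without IFNβ was 1, and 2 with DESeq2 and with the replicate block, by the addition of Ccr1. For sn with IFNβ it was 2, but 1 in a fit of the compared conditions alone and 1 to 2 with each library left out, Ccr1 being lost without rIFNβ replicate 1. With each library left out the receptors called for IFNβ numbered 7 in every fit with sn and 4 to 5 without sn (6 with all libraries), where Ackr3 and Cx3cr1 were lost as described, and for the averaged sn effect 2 in every fit. For rIFNβ against eGFP sn there were 5 to 6, Ackr3 being lost without eGFP sn replicate 1 or 2 or rIFNβ replicate 1 or 3 (adjusted p of 0.0788 to 0.101). Of the single values under these alternatives, 733 kept their side of the threshold, 15 were no longer called and 2 became called. Some of the values that were never called did change direction. For example, Ackr3 for sn without IFNβ ran from -0.82 to 0.27 with each library left out.

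Counts over all genes moved more. For sn without IFNβ 45 genes were called, 204 with DESeq2, 122 with the replicate block, 75 without a filter, 22 with the compared conditions alone and 16 to 32 with each library left out. For sn with IFNβ there were 24, and 117, 48, 41 and 2 under the same alternatives. Leaving out Ifnb1eGFP sn replicate 2 gave 1051 and each other library 4 (rIFNβ replicate 1) to 23; the cause was not tested. For the averaged sn effect there were 136, 345 with DESeq2, 252 with the block, 531 without Ifnb1eGFP sn replicate 2 and 55 (rIFNβ replicate 1) to 132 without each other library, and for the interaction 0, 12 with DESeq2 and 1 without a filter.

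Libraries with the same replicate number deviated together, with r of 0.0582 to 0.252 (mean 0.148) over 18 pairs from different conditions. Pairs with different numbers gave -0.318 to 0.147, and 12 of 12 libraries correlated best with their own number. The main model nevertheless left the number out, since r exceeded 0.1 in 13 of the 18 pairs and not in all. Its calls for sn therefore depend on that choice, as the counts with the block show. Apart from Ccr1 for sn without IFNβ, which it called, the replicate block changed no call among the receptors. Ackr3, Cx3cr1 and Ccr7 are limited by depth, with few counts per library, and Ccr2 by reads divided among genes.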
